A study of Mus musculus with 14 samples.

Results

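Receptor-type protein tyrosine phosphatases and pleiotrophin were followed in layer II/III of the mouse cerebral cortex at postnatal day 5, in experiments designed to delete the LIM-homeodomain transcription factor Lhx2. The set has 10 genes, picked by symbol: pleiotrophin (Ptn) and the phosphatases Ptprz1, Ptprg, Ptprd, Ptprf, Ptprs, Ptprk, Ptprm, Ptprt and Ptpro. All 10 were found among the 25229 symbols of the progenitor table and the 55353 of the postmitotic table, and all 10 passed the filter on low counts in both. They were chosen with the differences between mutant and control libraries of both experiments already known, so those differences and calls are given as a description and support nothing.

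Every animal carried Lhx2lox/lox, floxed alleles of Lhx2. In the progenitor experiment the cortex was electroporated in utero at E15.5 (embryonic day) with an EGFP plasmid (control, n = 4 libraries) or a Cre-EGFP plasmid (mutant, n = 4). For the postmitotic deletion all cortices received EGFP, and the animals were Lhx2lox/lox (control, n = 3) or NexCre/+; Lhx2lox/lox (mutant, n = 3), where NexCre acts in young excitatory neurons and not in their progenitors. Polyadenylated RNA came from microdissected and dissociated layer II/III, so each library also holds RNA of cells around the labelled neurons. Whether the libraries come from separate animals is not stated, and errors and p-values then measure only how far these libraries differ, which may be technical. The Cre plasmid acts in the cells that took it up, whereas NexCre acts in excitatory neurons generally.

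Receptor-type phosphatases cross the plasma membrane, with adhesion-like domains outside the cell and tyrosine phosphatase domains inside. They remove phosphate from tyrosines of adhesion and signalling proteins, and many of them take part in axon growth and synapse formation. Pleiotrophin is a small secreted heparin-binding protein that binds the chondroitin sulphate chains of Ptprz1 and lowers its phosphatase activity. In the developing cortex Ptprz1 and pleiotrophin are known as abundant products of radial glia and astrocytes, and Ptprz1 also of oligodendrocyte precursors, while Ptprd, Ptprf and Ptprs (the LAR family) are known as neuronal receptors that organise the presynaptic side.

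The libraries held 22677019 to 29497595 counts in the progenitor and 21605777 to 25891416 counts in the postmitotic experiment. Lhx2 itself was not lower in the mutant libraries: it had 127 ± 9.10 and 130 ± 11.4 CPM (read counts scaled to library size) in progenitor control and mutant libraries, and 147 ± 3.48 and 179 ± 7.41 CPM in the postmitotic ones (mean ± SD). Its postmitotic log2 fold change of 0.29 ± 0.06 (SE) was called higher, and that call was lost without any 1 of 5 of the 6 libraries (all but mutant 1), with values of 0.27 to 0.31. Counts are given per gene, so reads from outside the floxed part cannot be told apart from reads of the whole transcript. Groups are therefore libraries labelled control or mutant throughout. All 11 markers of upper-layer excitatory neurons, Lhx2 among them, had counts in each group. Their summed levels were 3956 to 4274 CPM in progenitor controls and 3905 to 4204 in progenitor mutants. They were 4514 to 4842 CPM in postmitotic controls and 4467 to 4949 in postmitotic mutants. Changes in opposite directions can cancel in such sums. Of the 11 markers, 4 were called higher and 1 lower in the progenitor mutants, where 23.4% of all tested genes were called. In the postmitotic mutants 2 were called higher, Lhx2 among them, and 3 lower, where 1.96% of all tested genes were called. These markers cannot tell the labelled neurons from unlabelled excitatory neurons around them. Counts of Y-linked genes above 1 CPM were found in 3 of 4 progenitor mutants but 0 of 4 progenitor controls, and in 1 of 3 postmitotic mutants and 2 of 3 postmitotic controls. Sex and label thus overlap in the progenitor experiment, and results there are also given with Y-linked CPM as a covariate where that ends a call. As only mutant 1 lies with the controls on that covariate, fold changes with it rest mostly on mutant 1 against the controls. Within the progenitor mutants and within both postmitotic groups, libraries differed in Y-linked counts, so each of these groups draws on more than 1 animal. For libraries alike in sex, the progenitor controls included, it is not known whether the animals were separate.

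In the control libraries pleiotrophin was far above the phosphatases once counts were divided by exon length. It stood at 217 ± 24.0 CPM per kb of exon in progenitor controls (SD, n = 4) and 204 ± 10.6 CPM per kb in postmitotic controls (SD, n = 3), above 99.3% and 99.1% of tested genes with a known length. Ptprs and Ptprz1 followed in the progenitor controls, with 52.0 ± 1.63 and 51.3 ± 6.88 CPM per kb, and their ranges overlapped. In the postmitotic controls the same pair had 49.6 ± 1.81 and 38.4 ± 1.98 CPM per kb, with no overlap.

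Ptprf came next at 29.9 ± 1.30 CPM per kb in progenitor and 30.4 ± 0.748 CPM per kb in postmitotic controls. Ptpro, Ptprd and Ptprk formed a middle group, at 21.6 ± 0.970, 20.3 ± 0.492 and 17.7 ± 1.41 CPM per kb in progenitor controls. Only Ptpro and Ptprd overlapped there, and in the postmitotic controls, where Ptprk (24.6 ± 1.68) stood above Ptprd (21.2 ± 1.83), only Ptpro (26.7 ± 1.35) and Ptprk did. Ptprg, Ptprt and Ptprm were lowest in both tables, at 10.6 ± 0.805, 9.15 ± 1.92 and 4.69 ± 0.372 CPM per kb in progenitor controls, where Ptprg and Ptprt overlapped. The tables come from separate experiments, so levels were not tested between them, and exon length is the union of all annotated exons, which understates a gene whose long exons are little used.

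**Figure D1:**
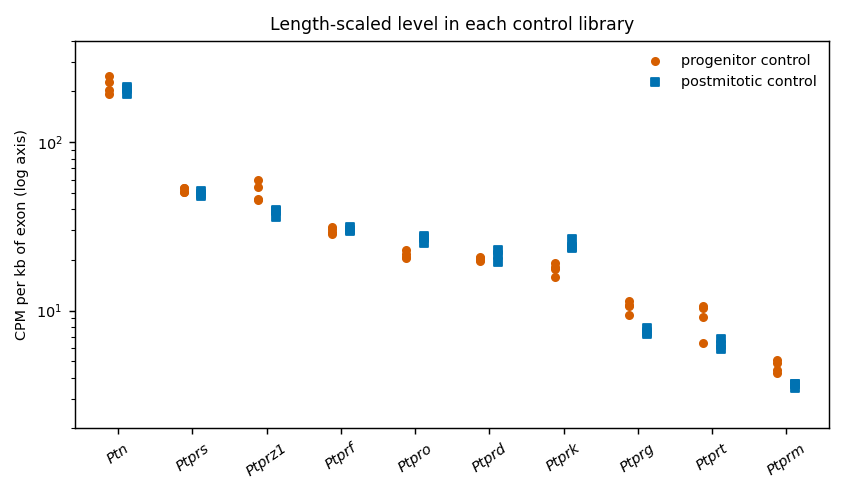
Level of the 10 genes in each control library, in CPM per kb of exon on a log axis; each point is 1 library, circles for the 4 progenitor controls and squares for the 3 postmitotic controls. Ptn stands at 192 CPM per kb or more in every library and Ptprm at 5.08 or less.

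The genes are long and spread over 6 chromosomes (GENCODE M21 on GRCm38/mm10, all protein-coding). Ptprk lies on chromosome 10, 28074820 to 28597397, plus strand. Ptn and Ptprz1 both lie on chromosome 6, Ptn at 36714929 to 36810220 on the minus strand and Ptprz1 at 22875502 to 23052916 on the plus strand. Ptpro is on that chromosome too, at 137252319 to 137463233, plus strand. Ptprs (56412426 to 56476483) and Ptprm (66666947 to 67354457) lie on the minus strand of chromosome 17, and Ptprd (75941238 to 78211961) and Ptprf (118208213 to 118291405) on the minus strand of chromosome 4. Ptprg is on chromosome 14, 11553532 to 12242041, plus strand, and Ptprt on chromosome 2, 161521990 to 162661147, minus strand. Exons of the opposite strand overlap Ptprd by 7 bases (B230208B08Rik) and Ptprg by 50 bases (Gm48603), and a gene of the same strand overlaps Ptprm by 457 bases. Whether the counting used strand is not known here, so reads from those stretches cannot be assigned.

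RefSeq promoters (GRCm38.p6) were found by symbol for 9 of the 10 genes, 11 promoters in all. For those of Ptpro and Ptprm and another of Ptprs, not shown, the bases after the start were not found in an annotated transcript. Promoters of 3 genes are shown because these genes differed most clearly between groups: Ptprk in both experiments, Ptprs in the progenitor and Ptn in the postmitotic experiment. Each runs 5′ to 3′ on the gene's strand and ends at the last base before any annotated exon. They span chr10:28074570-28074819 (plus strand), chr17:56476484-56476730 (minus strand) and chr6:36810221-36810429 (minus strand). Capitals mark CAGATG on either strand, an E-box of the kind bound by proneural factors.
Ptprk: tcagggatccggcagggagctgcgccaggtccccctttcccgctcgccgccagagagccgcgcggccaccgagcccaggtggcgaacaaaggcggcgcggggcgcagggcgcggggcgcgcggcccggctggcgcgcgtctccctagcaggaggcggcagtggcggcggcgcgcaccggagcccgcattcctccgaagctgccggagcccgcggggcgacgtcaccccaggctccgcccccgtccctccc
Ptprs: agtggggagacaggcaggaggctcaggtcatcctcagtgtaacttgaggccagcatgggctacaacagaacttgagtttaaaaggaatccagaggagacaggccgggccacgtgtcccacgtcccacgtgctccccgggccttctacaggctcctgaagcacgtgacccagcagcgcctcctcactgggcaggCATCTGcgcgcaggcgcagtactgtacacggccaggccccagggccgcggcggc
Ptn: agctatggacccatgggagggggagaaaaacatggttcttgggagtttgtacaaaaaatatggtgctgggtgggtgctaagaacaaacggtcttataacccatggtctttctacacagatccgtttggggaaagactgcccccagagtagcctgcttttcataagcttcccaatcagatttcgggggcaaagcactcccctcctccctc

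The 3 promoters differ in base composition. That of Ptprk is 79.2% G or C with 38 CpG dinucleotides and that of Ptprs 64.0% with 14, while that of Ptn is 49.8% with 3. The median over all 32851 RefSeq promoters was 52.4% with 6. TAATTA, a core sequence of homeodomain binding sites that reads the same on both strands, was in 0 of the 11 promoters of the set and in 4.84% of all promoters (250 bases before the start). CAGATG was in 2 of the 11, the one of Ptprs shown here and that of a second start of Ptprg, and in 14.4% of all promoters, and it does not overlap TAATTA in sequence. A match here is a description of letters in this window and nothing more.

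The comparisons ask which transcripts differ between libraries labelled mutant and control in each experiment. A gene is called when its adjusted p is under 0.05 by the quasi-likelihood F test of edgeR, with p-values adjusted by Benjamini-Hochberg over all tested genes. Of the 10 genes, 3 were called higher and 0 lower in the progenitor mutants, against 23.4% of 15295 genes called there (12% higher and 11.4% lower). In the postmitotic mutants 1 was called higher and 1 lower, against 1.96% of 17775 genes (0.895% higher and 1.06% lower). The median log2 fold change of the 10 was 0.14 and 0.06 in the progenitor and postmitotic experiments, beside 0.00 and -0.00 over all genes. As the genes were chosen with these contrasts known, nothing is read from the counts. Groups did not overlap for 3 of the 10 in the progenitor experiment, all higher in mutants, where 27% of all genes had such groups (13.7% higher and 13.3% lower). They did not overlap for 3 of the 10 in the postmitotic experiment, 2 higher and 1 lower, against 16.4% of all genes (7.98% higher and 8.44% lower).

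**Figure D2:**
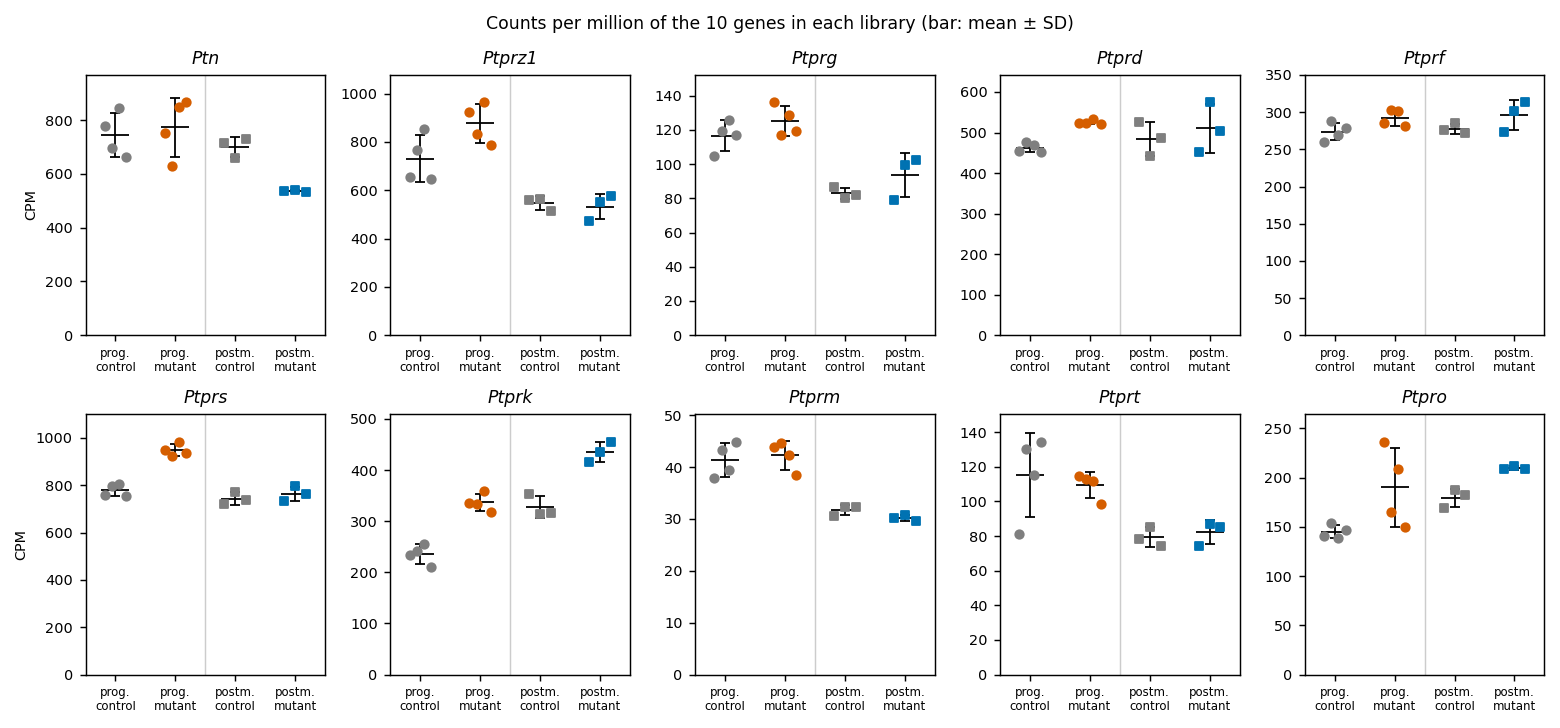
Level (CPM) of each of the 10 genes in every library, on axes that start at 0; points are libraries, and bars give the mean and SD of the 4 progenitor or 3 postmitotic libraries of a group. Ptprk is higher in all mutants than in all controls of both experiments, and the 3 postmitotic mutants (blue) have the lowest Ptn of that experiment, at 531 to 541 CPM.

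Pleiotrophin, the ligand of the set, was lower in the postmitotic mutants and similar in level in the groups of the progenitor experiment. Postmitotic controls 1 to 3 had 714, 660 and 729 CPM of Ptn, and mutants 1 to 3 had 537, 541 and 531 CPM. Every mutant lay below every control, and the mutants lay close together. The means were 701 ± 36.4 and 536 ± 4.95 CPM (SD, n = 3 each), 23.4% lower in the mutants, with a log2 fold change of -0.39 ± 0.06 (SE, 95% interval -0.52 to -0.25). In the progenitor experiment controls 1 to 4 had 779, 696, 845 and 663 CPM and mutants 1 to 4 had 752, 628, 848 and 865 CPM. Mutants lay both above and below all controls, and the log2 fold change was 0.05 ± 0.11, with an interval of -0.19 to 0.29. The postmitotic call of Ptn held without any 1 of the 6 libraries. It was lost with 1 fit of all 14 libraries (-0.38 ± 0.10) and with controls 1 and 2 against mutants 1 and 2 alone (-0.35 ± 0.10).

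Ptprz1, the main phosphatase receptor of pleiotrophin, was called in neither experiment. Its level was 654, 768, 852 and 648 CPM in progenitor controls 1 to 4 and 922, 835, 963 and 787 CPM in mutants 1 to 4. Mutants 1 and 3 were above every control, and mutants 2 and 4 lay within the range of the controls. The log2 fold change was 0.26 ± 0.10 (interval 0.05 to 0.48). It was called by DESeq2, with 1 fit of all 14 libraries, and in edgeR without progenitor control 3, where it was 0.35 ± 0.08. Postmitotic libraries had 560, 566 and 514 CPM in controls 1 to 3 and 473, 551 and 574 CPM in mutants 1 to 3, with 1 mutant below and 1 above all controls. The log2 fold change there was -0.04 ± 0.08 (interval -0.21 to 0.13).

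The ratio of Ptn to Ptprz1, both per kb of exon, puts ligand and receptor of a library side by side. In the postmitotic mutants 1 to 3 it was 4.71, 4.08 and 3.84, and in their controls 1 to 3 it was 5.29, 4.84 and 5.88, with every mutant below every control. In the progenitor experiment it averaged 4.27 ± 0.495 in controls and 3.68 ± 0.625 in mutants (SD, n = 4 each), and the ranges of 3.76 to 4.94 and 3.12 to 4.56 overlapped. The ratio is built from contrasts that were known when the genes were chosen, and it was not tested.

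Both genes are known from glia, and glial markers were present in every group. None of the 15 astrocyte markers was at 0 in any group, nor were defining ones such as Aqp4, a water channel, and Aldh1l1, a folate enzyme. Summed over the 15, astrocyte markers were at 1280 to 1496 CPM in postmitotic controls and 1166 to 1287 CPM in postmitotic mutants, with 0 of 15 called. In the progenitor experiment they were at 2943 to 3686 CPM in controls and 2438 to 3027 CPM in mutants, with 4 lower and 1 higher. The 11 markers of radial glia and dividing progenitors summed to 670 to 731 CPM in postmitotic controls and 571 to 650 in postmitotic mutants, with 0 of 10 tested called. In the progenitor experiment they summed to 670 to 933 CPM in controls and 882 to 1047 in mutants, with 3 of 10 tested higher and 0 lower. The 12 oligodendrocyte lineage markers summed to 440 to 493 and 386 to 458 CPM in postmitotic controls and mutants, with 0 called, and to 665 to 794 and 673 to 861 CPM in the progenitor groups, with 3 higher. In the postmitotic experiment the median log2 fold changes of the astrocyte, radial glia and oligodendrocyte lineage lists were -0.20, -0.09 and -0.17. The median over all genes was -0.002. In the progenitor experiment they were -0.15, 0.15 and -0.19, beside 0.004 over all genes. Over all genes 12% were called higher and 11.4% lower in the progenitor experiment. The part of these glial cells in the values of Ptn and Ptprz1 was not tested. In such tissue, fewer cells of a type and less RNA per cell cannot be told apart.

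Ptprg, which shares the carbonic anhydrase-like domain of Ptprz1 and binds contactins, was not called in either experiment. It ranged from 104 to 126 CPM in progenitor controls and from 117 to 136 CPM in mutants, a log2 fold change of 0.10 ± 0.07. Postmitotic controls had 80.1 to 86.5 CPM, and mutants 1 to 3 had 78.9, 99.4 and 102 CPM, with 1 mutant below and 2 above all controls (0.17 ± 0.09).

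The LAR family receptors were higher in progenitor mutants for Ptprs and Ptprd and not called for Ptprf, and none was called in the postmitotic experiment. Ptprs, which binds heparan and chondroitin sulphate proteoglycans as well as TrkC, had 760, 796, 804 and 756 CPM in progenitor controls 1 to 4 and 949, 923, 984 and 938 CPM in mutants 1 to 4. Every mutant was above every control. The mean was 21.7% higher in the mutants, with a log2 fold change of 0.28 ± 0.05 (interval 0.18 to 0.39). Postmitotic libraries had 719, 773 and 736 CPM in controls 1 to 3 and 734, 795 and 762 CPM in mutants 1 to 3, which overlapped (0.04 ± 0.06, interval -0.10 to 0.18).

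Ptprd, a presynaptic partner of Slitrk and interleukin-1-receptor-like proteins, varied little within the progenitor groups. It had 456, 475, 468 and 451 CPM in controls 1 to 4 and 524, 522, 532 and 522 CPM in mutants 1 to 4. No mutant overlapped a control, and the log2 fold change was 0.18 ± 0.04 (interval 0.09 to 0.28). In the postmitotic experiment its libraries were spread more widely, from 442 to 526 CPM in controls and 452 to 574 CPM in mutants, and the log2 fold change was 0.07 ± 0.09. Ptprf, the family's founding member LAR, ranged from 260 to 288 CPM in progenitor controls and 281 to 303 CPM in mutants (0.10 ± 0.05), and from 272 to 285 and 273 to 313 CPM in postmitotic controls and mutants (0.09 ± 0.07). With Y-linked CPM as a covariate the progenitor fold changes of Ptprs and Ptprd were 0.29 ± 0.08 and 0.18 ± 0.08, and neither was called. These values rest mostly on mutant 1. Ptprd was also not called in the progenitor comparison taken from 1 fit of all 14 libraries (0.18 ± 0.07).

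Ptprk was the gene of the set that was called in both experiments, and higher in the mutants each time. It is a homophilic adhesion receptor whose phosphatase domains act on the catenins of cell junctions. Progenitor controls 1 to 4 had 235, 242, 256 and 211 CPM and mutants 1 to 4 had 336, 334, 359 and 319 CPM. All mutants were above all controls. The mean was 42.9% higher in mutants (236 ± 18.8 against 337 ± 16.7 CPM, SD over 4 libraries each). The log2 fold change was 0.51 ± 0.06 with an interval of 0.37 to 0.65. In the postmitotic experiment controls 1 to 3 had 354, 314 and 316 CPM and mutants 1 to 3 had 415, 435 and 455 CPM, again without overlap. The mean there was 32.8% higher in mutants (328 ± 22.4 against 435 ± 20.0 CPM, SD over 3 libraries each). The log2 fold change was 0.41 ± 0.07 with an interval of 0.26 to 0.56. The progenitor call held under all 17 alternatives, the covariate included, where the fold change rests mostly on mutant 1. The postmitotic call was lost without postmitotic control 2 (0.38 ± 0.08) and with controls 1 and 2 against mutants 1 and 2 alone (0.35 ± 0.10).

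The relatives of Ptprk with the same domain layout, Ptprm and Ptprt, were not called in either experiment. Ptprm, a homophilic adhesion receptor, ranged from 37.9 to 44.9 CPM in progenitor controls and 38.4 to 44.6 CPM in mutants (0.03 ± 0.07, interval -0.12 to 0.18), and from 30.5 to 32.3 and 29.6 to 30.7 CPM in the postmitotic groups (-0.07 ± 0.08, interval -0.24 to 0.10). Ptprt, which is largely confined to the nervous system, had 81.3, 130, 115 and 135 CPM in progenitor controls 1 to 4 and 115, 113, 112 and 98.6 CPM in mutants 1 to 4. Control 1 was the lowest of the 8 libraries, and the fold change of -0.08 ± 0.14 has the widest interval of the set, -0.40 to 0.25. Postmitotic libraries ranged from 74.4 to 85.5 CPM in controls and 74.5 to 87.1 CPM in mutants (0.05 ± 0.08).

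Ptpro, a receptor with a single phosphatase domain that acts on Eph receptors in growing axons, was higher on average in both sets of mutants without being called. Progenitor controls 1 to 4 had 141, 153, 139 and 147 CPM and mutants 1 to 4 had 236, 165, 209 and 149 CPM. Mutants 1, 2 and 3 were above all controls and mutant 4 was among them, and the SD was 39.9 CPM in mutants against 6.52 CPM in controls (n = 4 each). The log2 fold change was 0.39 ± 0.13 (interval 0.09 to 0.69). It was called by DESeq2, without the robust step and with 1 fit of all 14 libraries. It was also called in edgeR without progenitor mutant 2 (0.45 ± 0.13) or mutant 4 (0.49 ± 0.10), and with Y-linked CPM as a covariate (0.73 ± 0.13). The value with the covariate rests mostly on mutant 1, the highest of the progenitor mutants. Postmitotic controls 1 to 3 had 169, 187 and 182 CPM and mutants 1 to 3 had 209, 212 and 209 CPM. These groups did not overlap, and the log2 fold change was 0.23 ± 0.06 (interval 0.09 to 0.36), which DESeq2 called and edgeR did not.

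**Figure D3:**
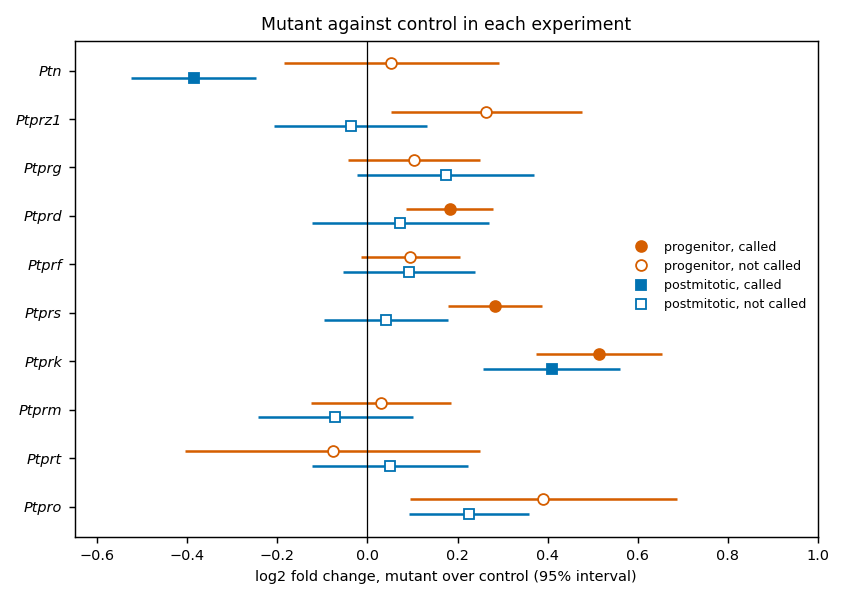
Log2 fold change of mutant over control for the 10 genes, with 95% intervals, in the progenitor (circles, 4 against 4 libraries) and postmitotic experiment (squares, 3 against 3); filled points were called at an adjusted p under 0.05 in edgeR. Ptprk stands at 0.51 and 0.41, and Ptn at 0.05 and -0.39.

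The experiments have separate controls, and their difference was fitted as an interaction of experiment and label, in which 6.94% of 15643 genes were called. It is given as a description, since both contrasts were known. Postmitotic minus progenitor, the log2 fold change differed by -0.44 ± 0.14 for Ptn (interval -0.73 to -0.15), by -0.30 ± 0.14 for Ptprz1 (-0.59 to -0.01) and by -0.24 ± 0.07 for Ptprs (-0.39 to -0.09). Of these, Ptprs was called, and its call was lost when any 1 of 12 of the 14 libraries was left out (all but progenitor control 3 and postmitotic mutant 2), with values of -0.25 to -0.21. Ptn was called without progenitor control 3 (-0.50) or progenitor mutant 2 (-0.53). For Ptprk the difference was -0.11 ± 0.10, with an interval of -0.31 to 0.10. The other 6 genes differed by -0.16 to 0.13, and each interval included 0.

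The genes most alike in pattern were sought among 13646 others tested in both experiments, by the root mean square difference of log2 CPM over the 14 libraries, each experiment centred on its mean. For Ptprk they were Plch2 (0.10) and Sncaip (0.10), beside a spread of 0.25 of Ptprk itself. Their log2 fold changes in the progenitor and postmitotic experiments were 0.37 and 0.25 for Plch2 and 0.37 and 0.24 for Sncaip. For Ptn they were Ppard (0.08) and Rnft1 (0.09), against a spread of 0.18, with postmitotic log2 fold changes of -0.32 and -0.20. For Ptprs they were Phldb1 and Noc2l (both 0.04, against 0.12) and for Ptprd Dab1 and Usp7 (both 0.04, against 0.11). All were picked by their values in these same libraries. A shared direction with the gene of the set follows from that choice, and nothing is read from it.

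Other genes of the pathway were taken from 5 lists, of which up to 4 called genes with the smallest p are named for each list and comparison. For scale, 23.4% of 15295 genes passed the test in the progenitor comparison and 1.96% of 17775 in the postmitotic one. The counts per list were not tested against these shares, so no response of the pathway is read from them. The other receptor phosphatases had 11 of 12 tested. In the progenitor experiment 1 rose and 1 fell, and in the postmitotic experiment 0 were called. Ptprb, the phosphatase of vascular endothelium, rose by 0.46 ± 0.15 in progenitor mutants (adjusted p = 0.0481, edgeR). Its call was lost without any 1 of 6 of the 8 libraries, the exceptions being control 3 and mutant 2, with values of 0.39 to 0.46. At the same time 3 of 10 endothelial and mural markers rose, with summed levels of 328 to 470 CPM in controls and 404 to 543 CPM in mutants. Their part in its value was not tested. Ptprn2, a phosphatase-like protein of dense-core vesicles, fell by 0.31 ± 0.08 (adjusted p = 0.0134, edgeR).

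Of 17 further ligands and receptors of the pleiotrophin and midkine family, 4 rose and 1 fell in the progenitor mutants, with a median of 0.14, and 1 rose in the postmitotic mutants, with a median of 0.01. Gpc2, a glypican of growing axons that binds midkine, rose by 0.90 ± 0.11 in the progenitor experiment (adjusted p = 0.000397, edgeR). Nrp1, the semaphorin co-receptor neuropilin, which also binds pleiotrophin, rose in both, by 0.47 ± 0.09 and 0.52 ± 0.09. Lrp1, an endocytic receptor, rose by 0.23 ± 0.07 and the syndecan Sdc4 fell by 0.60 ± 0.12 in the progenitor mutants. The fourth that rose, the integrin subunit Itgav (0.30 ± 0.09), was named after its value was seen, and it was not called without control 1 or 4 or mutant 1, 2 or 3 (0.24 to 0.33). The call of Lrp1 was lost without any 1 of 6 of the 8 libraries (0.17 to 0.24), all but controls 2 and 3. Midkine (Mdk), the relative of pleiotrophin, had log2 fold changes of 0.08 ± 0.16 and 0.05 ± 0.18 in the progenitor and postmitotic experiments. The receptor kinase Alk had 0.09 ± 0.18 and 0.25 ± 0.23, and the neuronal syndecan Sdc3 had -0.05 ± 0.06 and 0.16 ± 0.06, and these 3 genes passed the test in neither.

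Of 12 genes listed as neuronal partners of Ptprz1 and Ptprg, 3 rose and 0 fell in the progenitor and 1 rose and 0 fell in the postmitotic mutants. The name of the list does not say which cells the RNA came from. Cntn2, a contactin of growing axons, rose in both, by 0.37 ± 0.06 and 0.35 ± 0.07. Its postmitotic call was lost without any 1 control or without mutant 2 (0.28 to 0.36). Tnc, the matrix protein tenascin-C, rose by 0.93 ± 0.17 and Nfasc, an adhesion protein of axons, by 0.22 ± 0.07 in the progenitor mutants. There 3 of 10 tested markers of radial glia and dividing progenitors also rose, where 12% of all genes were called higher. The part of such cells in the value of Tnc was not tested. The call of Nfasc was lost without any library but control 2 (0.16 to 0.24).

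Of 22 ligands of the LAR family, 4 rose and 3 fell in the progenitor mutants, with a median of -0.01, and 0 were called in the postmitotic mutants, with a median of 0.06. Agrn, the proteoglycan agrin, rose by 0.40 ± 0.05, Ntrk3, the neurotrophin receptor TrkC, by 0.40 ± 0.06 and Il1rap, a subunit of interleukin receptors, by 0.48 ± 0.10. Slitrk3, a postsynaptic partner of Ptprd, fell by 0.40 ± 0.06. The other 3 called genes, named after their values were seen, were Vcan, a chondroitin sulphate proteoglycan (0.36 ± 0.11), and the postsynaptic partners Il1rapl1 (-0.39 ± 0.13) and Slitrk1 (-0.34 ± 0.09). Leaving out any library but control 2 ended the call of Vcan (0.28 to 0.39), and any library but control 3 that of Il1rapl1 (-0.43 to -0.30). Slitrk1 was not called without mutant 1 (-0.29) or mutant 3 (-0.31).

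Of 21 genes listed as intracellular partners, 4 rose and 1 fell in the progenitor and 1 rose and 0 fell in the postmitotic mutants. Ppfibp1, a liprin-beta, rose by 0.76 ± 0.08, Enah, an actin regulator, by 0.30 ± 0.06 and Magi1, a junctional scaffold, by 0.27 ± 0.06 in the progenitor mutants. Of the 4 liprin-alpha scaffolds that bind LAR receptors, Ppfia1 rose by 0.31 ± 0.07 there, while Ppfia2 (0.10 ± 0.06), Ppfia3 (-0.09 ± 0.05) and Ppfia4 (0.02 ± 0.05) did not pass the test. The gene that fell, named after its value was seen, was Dlg4, the postsynaptic scaffold PSD-95 (-0.19 ± 0.05), which was not called without control 4 or mutant 1, 2 or 4 (-0.19 to -0.16). None of the 4 liprin-alpha genes was called in the postmitotic mutants, where they stood between -0.10 and -0.02. Cdh2, the junctional N-cadherin, rose by 0.37 ± 0.07 in the postmitotic mutants. It is in this list although it is an adhesion protein that spans the membrane. Cdh2 was no longer called when postmitotic control 2 (0.33) or mutant 2 (0.32) was left out, or with 1 fit of all 14 libraries (0.37).

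**Figure D4:**
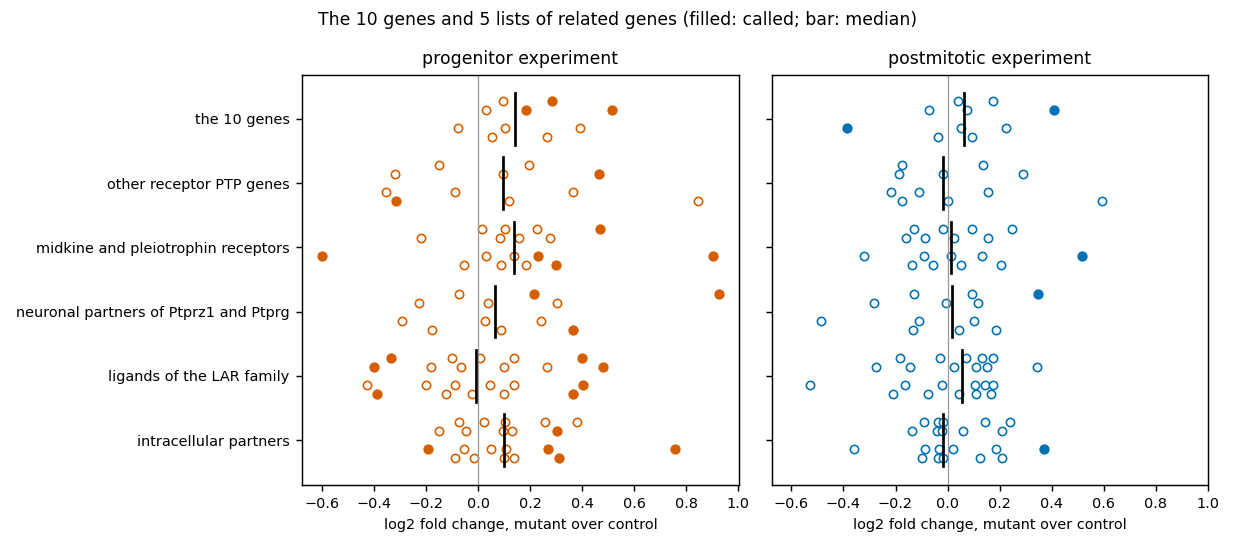
Log2 fold change of mutant over control for the 10 genes and the tested members of 5 lists of related genes, in the progenitor (left) and postmitotic (right) experiment. Each point is 1 gene, filled points were called in edgeR, and the black bar is the median of the row. In the postmitotic panel 2 of the 10 genes and 3 genes of the lists are filled.

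With Y-linked CPM as a covariate in the progenitor fit, the calls of 15 of the 22 called genes named from these lists were lost. The SE grew, and fold changes stayed near their size for some genes and moved for others. Whether calls were lost through the larger SE or through sex was not tested. The log2 fold change with the covariate was 0.47 ± 0.15 for Nrp1, 0.23 ± 0.11 for Lrp1, 0.46 ± 0.17 for Il1rap, 0.33 ± 0.10 for Enah, 0.32 ± 0.11 for Ppfia1, 0.34 ± 0.15 for Itgav, -0.39 ± 0.11 for Slitrk3 and -0.18 ± 0.09 for Dlg4. It was farther from 0 for Ptprb (0.67 ± 0.21), Il1rapl1 (-0.64 ± 0.19) and Slitrk1 (-0.49 ± 0.14). It was nearer to 0 for Cntn2 (0.30 ± 0.09), Nfasc (0.16 ± 0.11), Vcan (0.29 ± 0.18) and Sdc4 (-0.32 ± 0.16). The calls of Ptprn2 (-0.50), Gpc2 (0.90), Tnc (1.08), Agrn (0.40), Ntrk3 (0.48), Ppfibp1 (0.73) and Magi1 (0.36) held, with their log2 fold changes under the covariate in brackets. Mutant 1 was the only progenitor mutant under 1 CPM of Y-linked genes, as all 4 controls were. The values with the covariate thus rest mostly on mutant 1 against the controls.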

How the data were processed

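The authors deposited raw counts of reads for each gene symbol, in 1 table per experiment (4 against 4 and 3 against 3 libraries). HISAT2, featureCounts and DESeq2 with build mm10 are named per the submitters' processing notes. The sources used here do not give versions, annotation or strand setting. The deposited tables held 0 columns of other samples, and the authors' tables of fold changes were not used. The genes and lists were chosen with earlier results of these data known.

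Each experiment was fitted alone with edgeR 4.0.16 in R 4.3.3 (filterByExpr, TMM factors, robust glmQLFit, glmQLFTest, Benjamini-Hochberg adjustment over all genes tested). CPM use TMM-scaled library sizes, and the SE is the log2 fold change divided by the square root of F. The procedure was tested on simulated counts. Named list genes are the called ones, up to 4 per list and comparison with the smallest p, plus Mdk, Alk, Sdc3 and Ppfia1 to Ppfia4. Alternatives were DESeq2 1.42.0, limma-voom (limma 3.58.1), other scalings and filters, no robust step, a replicate block, 1 fit of all libraries, a Y-linked covariate and leaving out libraries. Chi-square statistics between replicates of a group were 6.31 to 19.6 times their degrees of freedom, more than counting noise gives. None was thus a plain resequencing of another library. Separate animals cannot be told from separate preparations of the same tissue in this way.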

Additional observations from a re-analysis of the deposited data

Results flagged for a closer look

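Among 40 named genes, 6 had an interaction of experiment and label past an adjusted p of 0.05 in edgeR, against 6.94% of all 15643 genes tested. Most list genes were named because they were called in the progenitor comparison, and the 10 genes were chosen with both contrasts known, so a larger progenitor fold change is favoured by the choice and nothing is read from the shared direction. Postmitotic minus progenitor, the log2 fold change differed by -0.24 ± 0.07 for Ptprs (SE), -1.04 ± 0.20 for Gpc2, -1.05 ± 0.25 for Tnc, -0.42 ± 0.09 for Agrn, -0.52 ± 0.13 for Ppfibp1 and -0.34 ± 0.09 for Enah. The postmitotic values themselves were 0.04 for Ptprs, -0.13 for Gpc2, -0.13 for Tnc, -0.02 for Agrn, 0.24 for Ppfibp1 and -0.04 for Enah. The calls of Gpc2 and Agrn held when any 1 library was left out. Those of Tnc, Ppfibp1 and Enah held without 6, 9 and 7 of the 14 libraries in turn, and that of Ptprs without 2.

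In 5 of 80 progenitor groups of 4 libraries, 1 library stood far from the other 3 (Dixon's ratio above its 95% critical value), which chance alone gives in about 1 group of 20. Ptprt had 98.6 CPM in mutant 4, against 112 to 115 CPM in the other mutants. Tnc had 217 CPM in control 3, against 131 to 142 CPM in the other controls. Nfasc had 299 CPM in mutant 4, against 268 to 273 CPM. In control 1, Il1rap had 12.9 CPM against 15.53 to 16.05 CPM, and Enah had 138 CPM against 162 to 166 CPM.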

How the results depend on the processing

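For the 40 genes with alternatives (the 10, Lhx2 and the named list genes), 0 called values changed direction. Of the 10 genes, 5 were called higher in the progenitor and 2 higher in the postmitotic comparison by DESeq2, against 3 and 1 in edgeR. DESeq2 also called more of all genes, 4000 in the progenitor and 502 in the postmitotic comparison, against 3577 and 348 in edgeR. Of the postmitotic calls, 0 lower remained with 1 fit of all libraries, and 0 higher and 0 lower with controls 1 and 2 against mutants 1 and 2. In the difference between experiments, 0 of the 10 were called with DESeq2 size factors, without a filter or with a replicate block. Over all genes, the progenitor comparison called 948 with the Y-linked covariate, against 3577, the postmitotic one 723 without a filter, against 348, and the difference 659 with the block, against 1086. With 1 library left out, the progenitor comparison called 2383 (without mutant 3) to 3712 genes and 3 to 4 of the 10 higher. The postmitotic one called 160 (without control 2) to 467 genes, 197 without control 3, with 0 to 1 of the 10 higher and 1 lower. The difference called 598 (without postmitotic control 1) to 1481 genes and 0 to 2 of the 10 lower; it called 637 without postmitotic mutant 1, 698 without progenitor control 4, 714 without postmitotic control 2 and 718 without progenitor mutant 3. The cause was not tested. Replicate numbers do not pair libraries here: deviations of same-numbered libraries correlated at -0.44 to 0.07 (progenitor) and -0.21 to 0.04 (postmitotic). With the replicate block 4 of the 10 were called higher in the progenitor comparison (Ptprz1 in addition), where 3073 of all genes were called. With the block, calls were lost for Ptprb (0.47) and Dlg4 (-0.19) in the progenitor comparison, for Lhx2 (0.29), Cntn2 (0.34) and Cdh2 (0.37) in the postmitotic one and for Ptprs (-0.24) and Enah (-0.35) in the difference, where Slitrk1 (0.38) was called in addition. Library totals in place of TMM moved 2 of 40 group means by more than 1 SD.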

Other observations

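Progenitor control 3 had the highest level among the 4 progenitor controls of Ptn (845 CPM), Ptprz1 (852 CPM), Ptprk (256 CPM), Ptprs (804 CPM) and Ptprg (126 CPM). It was not the highest for Ptprd, Ptprf, Ptprm or Ptprt, and it had the lowest Ptpro (139 CPM against 141 to 153 CPM). It also had the highest summed astrocyte markers of these controls, 3686 CPM against 2943 to 3184 CPM, and the highest of radial glia and progenitor markers (933 against 670 to 796 CPM), endothelial and mural markers (470 against 328 to 346 CPM) and microglia markers (224 against 153 to 177 CPM). Its summed interneuron markers (318 against 339 to 409 CPM) and upper-layer neuron markers (3956 against 4089 to 4274 CPM) were the lowest of the controls. Its oligodendrocyte lineage markers summed to 790 CPM, within the 665 to 794 CPM of the other controls. Progenitor mutant 2 had the lowest Ptn of all 8 progenitor libraries (628 CPM) and the lowest summed astrocyte markers (2438 CPM). Progenitor mutant 3 held both Y-linked counts (99.4 CPM) and Xist (554 CPM). Without mutant 3 Ptprk, Ptprs and Ptprd were still called higher.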
